A study of Homo sapiens with 8 samples.

Results

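The m6A peaks of 10 genes of glycolysis (HK1, HK2, GPI, PFKFB3, PFKFB4, ALDOA, PGK1, ENO1, PKM and LDHA) were described in U2OS cells, an established line from a human osteosarcoma, under control conditions and under siRNA against YTHDF2 (DF2). The members were all peaks filed under one of these 10 gene symbols in the authors' 2 peak lists. They numbered 9 of 15730 peaks in the control list and 9 of 13219 in the DF2 siRNA list, 18 of 28949 in all. The study held 8 libraries of cytoplasmic RNA: 2 input and 2 m6A immunoprecipitates of control cells (control 1 and 2), and the same of DF2 siRNA cells (DF2 siRNA #1 and #2). The treatment of the control cells and the relation of #1 to #2 (different siRNAs or repeats of 1) were not given in the sources used here, nor was a separate culture for each library. Each list belongs to both immunoprecipitates of its condition, so there is 1 list per condition. Differences between conditions therefore have no replicate check and no p-value, and the depth of the libraries is unknown.

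Glycolysis splits glucose into pyruvate, and tumour cells often run it fast and reduce the pyruvate to lactate. Hexokinases trap glucose in the cell, and the paired kinase and phosphatase enzymes of the PFKFB family set the level of a fructose bisphosphate that activates phosphofructokinase. m6A is a methylated adenosine of mRNA that is common around stop codons, and YTHDF2 is a cytoplasmic protein that binds it and directs the mRNA to decay. Antibodies against m6A also bind m6Am, a related mark at the first transcribed base of many mRNAs.

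Of the 10 genes, 7 had a peak in either list (70.0%), against 39.6% of the 20056 RefSeq protein-coding genes, many of which these cells may not express. The 10 genes were chosen with earlier results of these data known, so the shares are not an independent comparison. Among these 7 genes, HK2, PFKFB3, PFKFB4, ALDOA and ENO1 had a peak in both lists (5 of 7), GPI only in control (1) and PKM only under DF2 siRNA (1). Of the 10506 gene names in the lists, 75.2% were in both, 19.0% were only in control and 5.76% only in DF2 siRNA, so 5 of 7 was close to the background. HK1, PGK1 and LDHA had no peak in either list, and no peak of another gene lay within their RefSeq spans. PFKFB4 had 3 peaks in each list, PFKFB3 had 2 in each, and the other genes had 1 where they had any. The peaks stood at 10 sites, which fell into 3 kinds: around the stop codon in HK2, PFKFB3 and PFKFB4, at the 5′ part in GPI, PFKFB3, ALDOA and ENO1, and at or towards the 3′ end in PFKFB4 and PKM, beside 1 PFKFB4 peak that lies inside a neighbouring gene.

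Sequence was at hand only where a peak reached a RefSeq promoter window, which holds 250 bases before a transcript start and 50 from it on. This applied to the 5′ peaks of ENO1, ALDOA, PFKFB3 and GPI. The stretches below are shown because they hold the only matches, in the parts of these peaks that a window covers, to GGACA, to GGACC or to GGACT, common forms of the sequence in which m6A is made, searched on the transcript's strand only. They are RefSeq sequence of GRCh38.p14, 5′ to 3′ on that strand, with the match in capitals. ENO1 lies at chr1:8878673-8878702 (minus strand), PFKFB3 at chr10:6202884-6202913 (plus strand) and ALDOA at chr16:30064215-30064244 (plus strand).
ENO1: cgcgggcggcgcGGACAgtatctgtgggta
PFKFB3: tgcggccagcccGGACTctttaaaagccgg
ALDOA: cactccgtccacGGACTctccgttatttta

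In each case the match began before the first base of the RefSeq transcript whose window the peak met. The distance was 4 bases in ENO1, 36 in PFKFB3 and 52 in ALDOA. In ENO1 and ALDOA that base is the start of the RefSeq gene. In PFKFB3 (6202932) and GPI (34364992) it is a later start, as the RefSeq genes begin at 6144921 and 34359718. The PFKFB3 peak also holds an upstream exon, at 6146436, so its match need not precede the transcript that carried the peak. The ENO1 and PFKFB3 matches lay under the peak in both lists, and the ALDOA match lay under the control peak but outside the DF2 siRNA peak. GPI had no match in the 119 bases of its peak that the window covers. Among 35116 RefSeq promoter windows, the same part of the window held 1 of the 3 letter strings in 44.6% for ENO1, 29.3% for PFKFB3, 47.2% for ALDOA and 29.98% for GPI, each taken over the control peak. The 3 matches are therefore common in windows of this kind. The first base of the window's transcript lay within the peak and was an adenosine in ENO1, PFKFB3 and GPI. In PFKFB3 and GPI this was the later start, and only windows that met a peak were read. Of all windows, 44.4% have an adenosine there. In ALDOA it was a cytidine outside the peak. Signal from m6A and from m6Am cannot be told apart in these lists.

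Of the 9 control peaks, 8 shared at least 1 base with a DF2 siRNA peak on the same strand, against 71.9% of all control peaks. Of the 9 DF2 siRNA peaks, 8 shared a base with a control peak, against 87.5% of all DF2 siRNA peaks. The pairs were the same 8 sites. At 4 of them the interval was identical to the base (HK2, the stop codon peaks of PFKFB3 and PFKFB4, and the PFKFB4 peak in the neighbouring gene). Identical intervals made up 29.5% of all control and 35.1% of all DF2 siRNA peaks. At the other sites the peaks shared between 200 and 400 nt but ended at different bases.

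**Figure D1:**
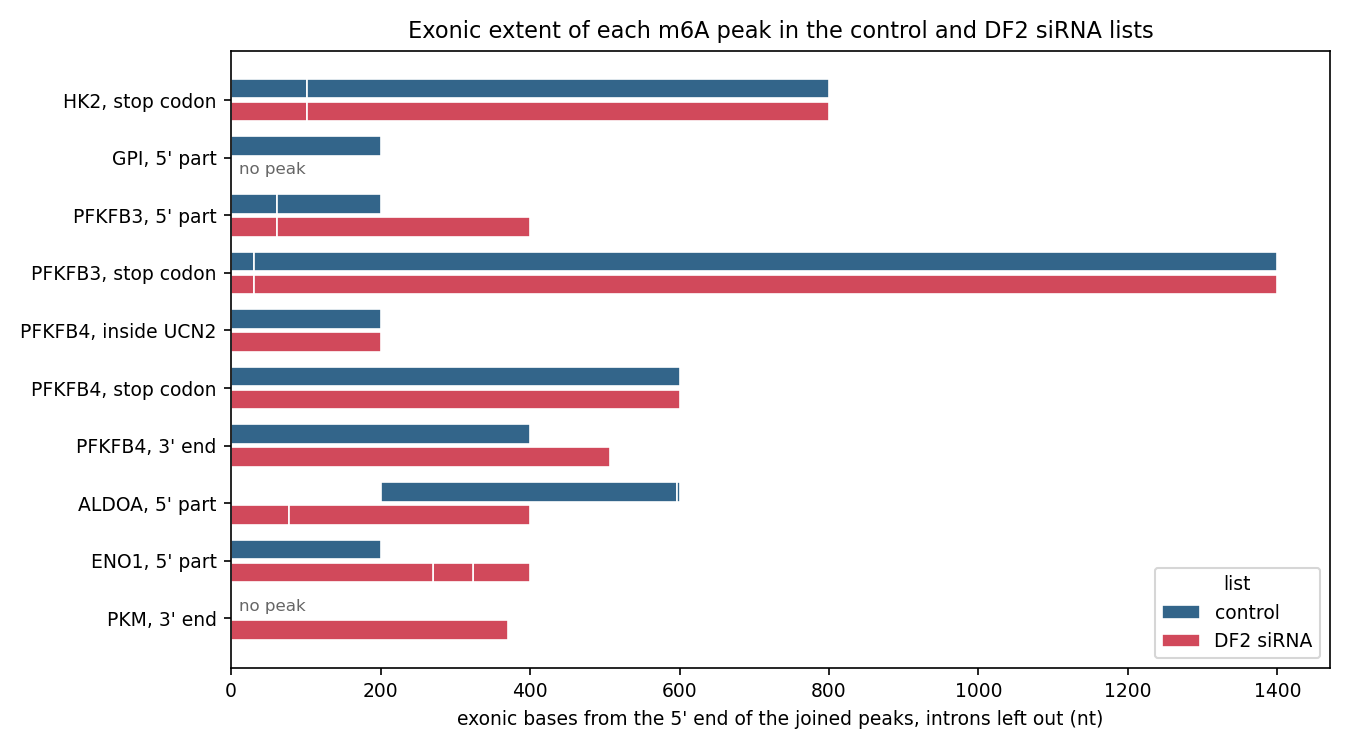
Exonic length of each glycolysis gene peak (x axis, nt, introns left out, 5′ to 3′) in the control list (blue) and the DF2 siRNA list (red), with white lines at introns. The 3 stop codon peaks of HK2, PFKFB3 and PFKFB4 have the same extent in both lists, while the ENO1 and PFKFB3 5′ peaks measure 200 nt in control and 400 nt in DF2 siRNA.

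By fold enrichment, the highest peaks of the group were those around the stop codons of HK2 and PFKFB3. By deposited score, ENO1 stood above HK2 in both lists, and PKM above every other member peak in DF2 siRNA. HK2 encodes the inducible hexokinase of many tumour cells. Its single peak ran over 800 nt of exon on chromosome 2 from 74889378 to 74891495 (hg38), was labelled coding, stop codon and 3′ UTR, and ended 1864 bases before the RefSeq 3′ end. The deposited fold enrichment is a ratio, its reference not given in the sources used here, and for HK2 it was 83.4 in control and 56.0 under DF2 siRNA. This placed HK2 at percentile 92.2 of the control list and 88.4 of the DF2 siRNA list. Percentiles rank a peak within its own list, and the values of the 2 lists are set side by side without a comparison. The paralog HK1, the hexokinase of most tissues, had no peak in either list.

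PFKFB3, the family member whose kinase activity most exceeds its phosphatase activity and a known target of hypoxia signalling, carried the widest peak of the group. It covered 1400 nt on chromosome 10 from 6231285 to 6234264, with 30 nt in 1 exon and 1370 nt in the next. The fold enrichment was 82.7 in control and 127 in DF2 siRNA. Of all DF2 siRNA peaks, 155 had a higher fold enrichment, and of all control peaks, 1260. The deposited score is a whole number, its meaning not given in the sources used here. For this peak it was 1778 in control and 1070 under DF2 siRNA, at percentiles 94.7 and 96.7. Within 4877 control peaks of the same label, the HK2 and PFKFB3 peaks stood above 87.0% and 86.8% by fold enrichment. Within 4199 such DF2 siRNA peaks they stood above 80.4% and 98.2%.

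PFKFB4, the paralog of PFKFB3, also had a peak around the stop codon, of 600 nt on chromosome 3 from 48519191 to 48519790. Its fold enrichment was 22.4 in the control list and 20.7 in the other, just above the medians of all peaks, 20.8 and 17.7. Among peaks of the same label it stood below the middle in both lists, above 34.5% of them in control and 38.9% in DF2 siRNA. PFKFB3 and PFKFB4 thus shared the site, and the PFKFB3 peak ranked higher within each list.

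A second PFKFB4 peak lay in the 3′ UTR. In control it covered 400 nt from 48517791 to 48518190 with an 8.31-fold enrichment and a score of 22. In DF2 siRNA it covered 507 nt from 48517684, which is the last base of the RefSeq gene, with 8.77 and a score of 16. The added 107 nt thus ran to the end of the transcript. The −log10 p-value in control was 1.35, close to the lowest value of that list, 1.30, and the −log10 FDR in DF2 siRNA was 1.86.

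The third PFKFB4 peak covered 200 nt from 48561816 to 48562015 and was labelled 3′ UTR, although it stood 1121 bases from the 5′ end of RefSeq PFKFB4. It also lay within UCN2 (48561718 to 48563781), which encodes the peptide urocortin 2. The DF2 siRNA list gave UCN2 a peak of 600 nt labelled 3′ UTR that contained these 200 nt. Both DF2 siRNA peaks carried the same fold enrichment of 5.46, −log10 value of 1.63 and score of 6, so the lists count this signal under both names. In control only the PFKFB4 name was listed, with a 6.27-fold enrichment and a score of 6. Whether the RNA came from PFKFB4 or from UCN2 cannot be told from the lists. Of 485 control peaks with a fold enrichment within 10% of this one, 16.3% were overlapped by a DF2 siRNA peak.

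**Figure D2:**
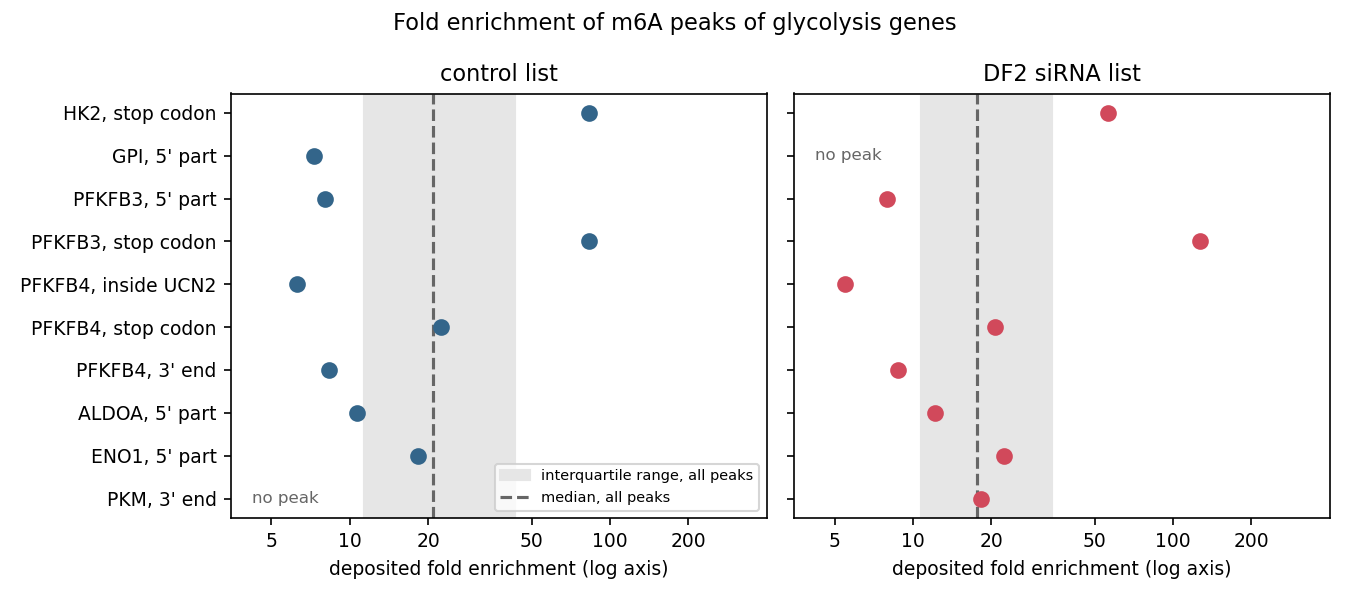
Deposited fold enrichment (x axis, log scale) of each glycolysis gene peak in the control list (left) and the DF2 siRNA list (right), with the median (dashed) and interquartile range (grey) of all peaks of that list. HK2 and the stop codon peak of PFKFB3 lie above the grey band in both lists. The 5′ peak of PFKFB3 and the PFKFB4 peaks at the 3′ end and inside UCN2 lie below it in both. GPI and ALDOA lie below it in control.

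The 5′ peaks covered 200 or 400 nt, and their fold enrichments lay between 7.31 and 22.3, below those of the HK2 and PFKFB3 stop codon peaks. PFKFB3 had one that joined 61 nt of an upstream exon at 6146436 to sequence from 6202866 on. It covered 200 nt in control and 400 nt in DF2 siRNA, where its end moved from 6203004 to 6203204. Its fold enrichments were 8.01 and 7.97, at percentiles 10.8 and 12.7, and its scores were 20 and 18. The 2 PFKFB3 peaks, at the 5′ part and around the stop codon, thus stood near opposite ends of each list.

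ALDOA encodes the aldolase of muscle and of many dividing cells, which cleaves fructose bisphosphate. Its control peak covered 400 nt on chromosome 16 from 30063852 to 30064276, and its DF2 siRNA peak covered 400 nt from 30058977 to 30064051. They shared 200 nt, 50% of each. The control peak was labelled 5′ UTR and the DF2 siRNA peak coding, 5′ UTR and stop codon, yet both lay upstream of the RefSeq gene, which starts at 30064279. The authors' gene model therefore reaches further upstream than the RefSeq one. The fold enrichment was 10.6 in control and 12.2 in DF2 siRNA, at percentiles 21.5 and 31.7, and the score was 102 and 26.

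ENO1 encodes the enolase of most cells, and a shorter product of the same mRNA binds DNA. Its peak covered 200 nt on chromosome 1 from 8878650 to 8878849 in control. In DF2 siRNA it held the same 200 nt and 200 more, which reached over 2 introns to 8874841. The label changed with the length, from 5′ UTR to coding, 5′ UTR and stop codon. Of the control peak, 163 nt lay upstream of the RefSeq start at 8878686. The fold enrichment was 18.3 in control and 22.3 in DF2 siRNA, at percentiles 45.1 and 59.6, near the middle of the lists. The score stood much higher, at 1196 and 652, percentiles 90.2 and 92.5.

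GPI encodes the isomerase that turns glucose phosphate into fructose phosphate, and it is also secreted as a cytokine. It was listed in control only, over 200 nt on chromosome 19 from 34364923 to 34365122. The peak carried the labels coding, 5′ UTR, stop codon and 3′ UTR together. It had a fold enrichment of 7.31, a score of 11 and a −log10 p-value of 1.94, and 14199 control peaks had a higher fold enrichment. Of 628 control peaks with a fold enrichment within 10% of it, 25.2% were overlapped by a DF2 siRNA peak, so most control peaks of this strength had no counterpart. For lists of equal length the control list alone was cut, to 13219 peaks. The member peaks lost were those of lowest fold enrichment, GPI among them, so this loss adds nothing to its low rank. With this cut, or with a p-value or FDR 100 times smaller, GPI was in neither list.

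PKM encodes the pyruvate kinase of most tissues and tumours, whose isoforms arise from the choice between neighbouring exons. It was listed in DF2 siRNA only, with 371 nt on chromosome 15 from 72199029 to 72199399, labelled 3′ UTR. The first of these positions is the last base of the RefSeq gene, which lies on the minus strand, so the peak covered the end of the transcript and not the alternative exons. The fold enrichment was 18.3, at percentile 51.7, and the −log10 FDR was 2.52, at percentile 26.9. The score was 1535, at percentile 98.4. Of 1150 other DF2 siRNA peaks with a fold enrichment within 10% of it, 92.5% were overlapped by a control peak, and PKM was not. Of all DF2 siRNA peaks labelled 3′ UTR alone, 85.9% were overlapped. It stayed in DF2 siRNA only with lists of equal length, but that cut shortened the control list alone, so PKM could not drop out. It was in neither list with a p-value or FDR 100 times smaller.

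The PKM and ENO1 peaks stood apart from the other members in the relation of score to fold enrichment. Of the 1150 DF2 siRNA peaks with a fold enrichment near that of PKM, 3 had a score of at least 1535, and their median score was 73.5. Near ENO1, 29 of 1232 peaks in control and 28 of 1021 under DF2 siRNA had a score at least as high, with medians of 106.5 and 96. HK2 was in the middle of its neighbours by this measure, above 56.8% of them in control and 56.6% in DF2 siRNA. Both values are the authors' own, and mRNA levels were not analysed here.

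**Figure D3:**
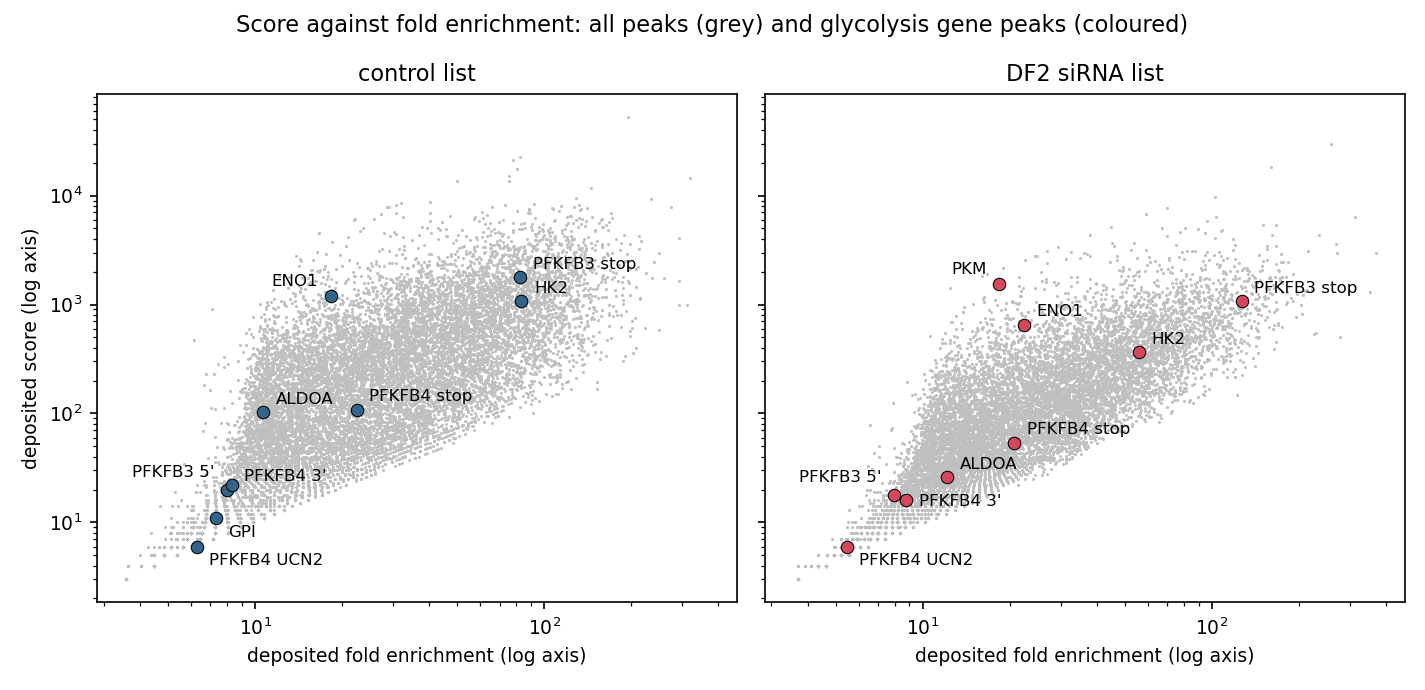
Deposited score against deposited fold enrichment (both log axes) for all peaks of a list (grey) and the glycolysis gene peaks (coloured), control left and DF2 siRNA right. ENO1 in both lists and PKM in DF2 siRNA lie at the upper edge of the grey cloud for their fold enrichment, while HK2 lies within it.

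Over the 9 peaks the median fold enrichment was 10.6 in control and 18.3 in DF2 siRNA, beside 20.8 and 17.7 for all peaks. The 2 sets of 9 differ: GPI, at 7.31, is in control only. PKM is in DF2 siRNA only, and its 18.3 is the median there. Above the median of all peaks stood 3 member peaks in control and 5 in DF2 siRNA. When each gene was given by its highest peak, the median was 20.3 over 6 member genes in control and 21.5 over 6 in DF2 siRNA, beside 29.1 and 23.0 over all genes. A stop codon label was given to 4 of 9 control and 5 of 9 DF2 siRNA peaks, beside 42.7% and 43.7% of all peaks. These counts include 5′ peaks that carry the label, GPI in control and ALDOA and ENO1 in DF2 siRNA. Only the 3 peaks of HK2, PFKFB3 and PFKFB4 stood around the stop codon in each list. None was labelled non-coding RNA, a label of 15.5% and 11.8% of all peaks.

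The members are part of a longer chain of enzymes. The route from glucose to lactate was laid out as 11 enzyme steps with a chosen set of isozymes for each, members included. An isozyme carried a peak in both lists at 4 steps (hexokinase, phosphofructokinase, aldolase and enolase). At 1 step, glucose phosphate isomerase, this held for the control list alone, and at 1, pyruvate kinase, for the DF2 siRNA list alone. At the remaining 5 steps none of the 13 genes had a peak in either list, whereas 39.6% of RefSeq protein-coding genes had one. The difference was not tested. These were triosephosphate isomerase, glyceraldehyde phosphate dehydrogenase, phosphoglycerate kinase, phosphoglycerate mutase and lactate dehydrogenase. BPGM, the bisphosphoglycerate mutase, was not counted at the mutase step. It had a peak in both lists, at fold enrichments of 28.9 in control and 15.8 in DF2 siRNA. How abundant these transcripts were was not analysed here, so a missing peak does not show that a transcript lacked m6A.

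Among 71 other genes of glucose use, 26 had a peak in both lists, 2 only in control, 1 only under DF2 siRNA and 42 in neither. Among the 42, TIGAR, a phosphatase that lowers the same fructose bisphosphate, was in fact listed in both under its older symbol C12orf5, with stop codon peaks at fold enrichments of 43.1 in control and of 22.1 under DF2 siRNA. By current symbol, and so without TIGAR, the 29 genes with a peak in either list made up 40.8% of the 71, beside 39.6% of RefSeq protein-coding genes. Of these 29, 89.7% were in both lists, beside 75.2% of all gene names in the lists. These 71 comprised 33 enzymes and isozymes, 13 transporters, 14 genes of pyruvate entry into mitochondria and 11 regulators. Again without TIGAR, a peak in either list was found in 7 of the enzymes, 8 of the transporters, 6 of the pyruvate genes and 8 of the regulators. The median over their highest peaks was 25.4 in the control list and 19.2 in the DF2 siRNA list, by fold enrichment.

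Genes of pyruvate entry and of transport reached higher values than any member in control. PDP2 and PDP1, the phosphatases that switch pyruvate dehydrogenase on, stood at 186 and 118 by fold enrichment in control and at 80.8 and 94.8 under DF2 siRNA. SLC16A1, a transporter of lactate, was listed at 88.5 and 51.4, and SLC2A6, a member of the glucose transporter family, at 139.95 and 48.7. MINPP1, an inositol phosphatase that also acts on bisphosphoglycerate, stood at 67.9 and 17.1. Among regulators, MLXIP, a glucose-sensing transcription factor, stood at 65.1 and 80.8, and EGLN1, the oxygen sensor that marks hypoxia-inducible factor for decay, at 25.1 and 52.2. The stop codon peak of PFKFB3 had a higher fold enrichment in DF2 siRNA than any of these.

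Of the genes found in 1 list only, PFKFB2, the third PFKFB member with a peak, was in control only with a 3′ UTR peak of 600 nt, a score of 39 and a 17.1-fold enrichment. PDK3, a kinase that switches pyruvate dehydrogenase off, was in control only with 22.7 and a score of 224. EPAS1, a hypoxia-inducible factor subunit, was in DF2 siRNA only with 2 peaks, the higher at 10.8 with a −log10 FDR of 1.38. In 2 genes found in both lists the highest peaks lay at different sites: PFKP, the platelet phosphofructokinase, at 12.4 in control and 11.2 in DF2 siRNA, and PDPR, a regulatory subunit of pyruvate dehydrogenase phosphatase, at 46.95 and 34.3.

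**Figure D4:**
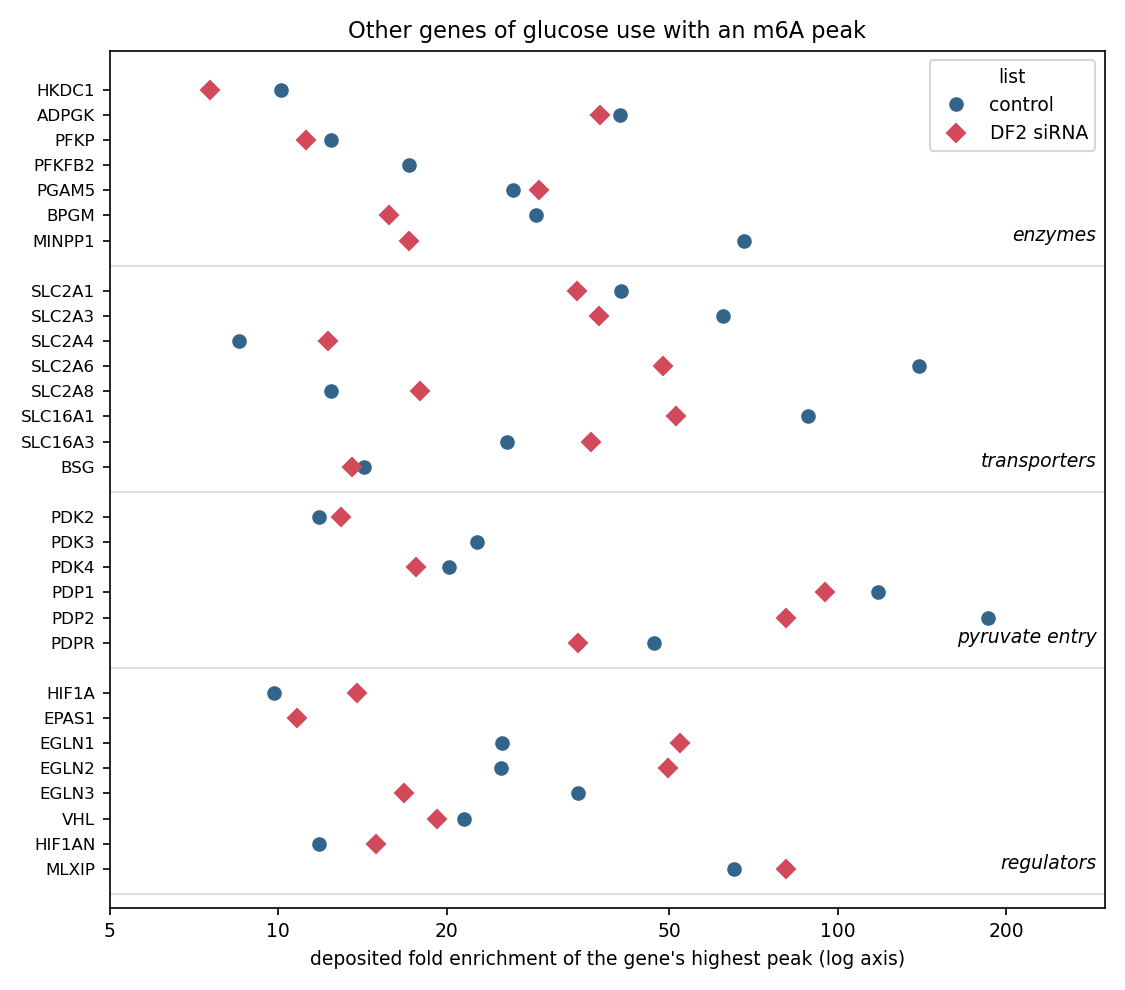
Deposited fold enrichment (x axis, log scale) of the highest peak of each of the 29 other genes of glucose use with a peak, in the control list (blue circles) and the DF2 siRNA list (red diamonds), by group. A gene with 1 symbol only has a peak in that list only, as PFKFB2, PDK3 and EPAS1. TIGAR, listed under its older name C12orf5, is not shown.

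The targeted gene, YTHDF2, had 1 peak in each list (control: 124-fold enrichment, score 4226; DF2 siRNA: 52.3-fold, score 185), which does not measure its mRNA. Of 11 markers of the mesenchymal or osteoblast lineage, RUNX2 and COL1A1 had a peak in both lists. Of 5 epithelial, 4 blood and 3 endothelial markers, KRT8, CD14 and CDH5 had one in both lists and PECAM1 in control only. Of RefSeq protein-coding genes, 39.6% had one in either list. A peak does not show how abundant a transcript is, so this does not check the cell type.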

How the data were processed

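Cytoplasmic RNA of U2OS cells was broken into fragments of about 100 nt and m6A-bearing fragments were pulled down with an antibody, per the labels' protocols. HISAT2 and hg38 are named in the submitters' processing notes. Peak caller, settings, annotation and strand use: not given in the sources used here. One peak list was deposited per condition. It gives a fold enrichment per peak, a ratio, per the file headers. The deposited −log10 column is headed as a p-value for control but as an FDR for DF2 siRNA. The deposited score holds whole numbers of unstated meaning.

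Peaks consist of exonic blocks. For peaks on the minus strand the deposited block sizes run in transcript order and the block starts in genome order. Read as written, the last block missed the deposited end in 3918 control and 2860 DF2 siRNA peaks, all on the minus strand. With the sizes reversed it missed none, and this order was used. Overlap means at least 1 shared exonic base on the same strand. Positions are counted from 1. All 10 symbols matched RefSeq genes of GRCh38.p14, which gave spans and promoter windows (21 windows for the 10 genes). The overlap count alone was tested, on the control list with a random share of its peaks moved to other chromosomes. The expected count came from the same overlap routine. Python 3.11.15, pandas 2.3.3, numpy 2.4.6, scipy 1.17.1 and matplotlib 3.10.9 were used.

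The members, the 71 other genes and the tests were chosen with earlier results of these data known. Every member peak is given. Of the other genes, those in 1 list only and the 5 with the highest fold enrichment per list are named; PFKP and PDPR were named after their values were seen. Alternatives were lists of equal length, stricter limits, other overlap rules, 2 peaks per gene and older gene symbols. Leaving out the PFKFB4 peak inside UCN2 and reading block sizes as written were added after the data were seen.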

Additional observations from a re-analysis of the deposited data

How the results depend on the processing

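The HK2 peak and the stop codon peaks of PFKFB3 and PFKFB4 were listed in both conditions under every limit tried on fold enrichment or p. GPI dropped out under each of the alternatives named next. PKM stayed only in the upper 50% and with equal lengths, where the control list alone was cut and PKM could not drop out. Member genes in both lists, control only and DF2 siRNA only numbered 5, 1 and 1, and became 4, 0 and 0 with a p or FDR 100 times smaller, 5, 0 and 1 with lists of equal length, 3, 0 and 2 when the upper 50% of each list by fold enrichment was kept, and 2, 0 and 0 when a gene needed at least 2 peaks. The 8 overlapped member peaks of each list became 4 of each, 5 of each and 3 of each under the first 3 of these. The 71 other genes, at 26, 2 and 1, became 17, 3 and 2, then 25, 2 and 2, then 14, 4 and 1, then 8, 1 and 4. Each of these alternatives leaves fewer peaks or genes to count.

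A reciprocal overlap of 50%, overlap of whole spans, overlap without strand, block sizes as written, older symbols (27 other genes in both lists, with TIGAR) and leaving out the PFKFB4 peak inside UCN2 kept each count they bear on within 1.5 times its value. No paired analysis was possible because the lists are given per condition and not per library, and for the same reason no library was left out in turn. Depth is unknown for both lists and limits how firmly the absence of a peak near the listing limit, such as that of GPI, can be read.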
